A study of Homo sapiens with 4 samples.

Results

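Mucins are heavily O-glycosylated proteins that coat epithelia. The gel-forming kinds, such as MUC5AC and MUC5B, are secreted as airway mucus, and the membrane-bound kinds, such as MUC1, MUC13 and MUC16, stay on the apical cell surface and can pass signals inward. In the airway they belong to a secretory programme in which the ETS transcription factor SPDEF drives goblet cell differentiation and the endoplasmic reticulum protein AGR2 helps mucins fold, while SCGB1A1 is the secreted protein that marks club cells. These 8 genes were chosen by symbol, and 7 of them had a row among the 23143 symbols of the deposited FPKM table. MUC5AC was not analysed here.

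The libraries came from polyadenylated RNA of A549, a cell line from a human lung adenocarcinoma, in a version in which doxycycline raises GATA4. There were 2 noDOX libraries, with GATA4 at its normal level (the design text names a vehicle), and 2 DOX libraries, with GATA4 overexpressed by doxycycline. The series title points to lung cancers deficient in GATA4 and to inhibition of a TGFβ receptor, so the comparison asks how the secretory genes stand when GATA4 is raised. The dose, the duration, the promoter of the transgene and whether the cells were 1 clone were not stated in these sources. No doxycycline-treated cells without the inducible GATA4 were analysed here, so effects of the drug and of GATA4 cannot be told apart.

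In a check of the labels, GATA4 measured 12.2 and 14.5 FPKM in noDOX libraries 1 and 2, and 75.0 and 48.0 FPKM in DOX libraries 1 and 2. Both DOX values were above both noDOX values, 4.61 times as high on average, and the difference missed the threshold over all genes (limma, adjusted p = 0.289). FPKM is a fragment count scaled by transcript length and by library, and its sums ran from 975728 to 1381820 over the 4 libraries. The read depth behind it is unknown. Of 6 epithelial markers all were tested, with sums of 5582 to 7812 FPKM in noDOX and 5016 to 9623 FPKM in DOX libraries, mostly from the keratins KRT8 and KRT18. Mean log2(FPKM + 1) was higher with doxycycline in 4 of the 6 and lower in 2, with a median difference of 0.31. The 2 were EPCAM and KRT7, with differences of -1.40 and -1.71 (limma, adjusted p = 0.494 and 0.981). Their DOX values were under the lower noDOX value, which held for 17.3% of all tested genes. The part of EPCAM and KRT7 in the members' differences was not tested. Of 10 alveolar type 2 markers 7 were under a mean of 1 FPKM. Among them were the defining surfactant genes SFTPC, at 0 to 0.0949 FPKM, and SFTPA2, listed at 0 in every library. The other 3, ABCA3, NAPSA and SLC34A2, overlapped between groups. Their mean log2 values were higher with doxycycline, with a median difference of 0.59. ABCA3 was at 3.75 and 8.41 FPKM in noDOX and 12.0 and 6.79 FPKM in DOX libraries. SLC34A2 reached 1 FPKM through its DOX mean. Basal, endothelial, fibroblast and blood cell lists had 1, 0, 1 and 2 members at a mean of 1 FPKM or more, and the defining markers PTPRC, CDH5 and KRT5 were at or near 0. Of the 4 at 1 FPKM or more, the macrophage marker CD68 was at 21.8 and 20.7 FPKM in noDOX and 6.69 and 16.9 FPKM in DOX libraries, COL1A1, a collagen chain, at 3.76 and 8.46 against 1.76 and 2.88 FPKM, and TP63, a basal cell factor, at 0.926 and 1.71 against 0.835 and 0.569 FPKM. In these 3 both DOX values were below both noDOX values, as in 17.3% of all tested genes. Their log2(FPKM + 1) differences were -0.92, -1.04 and -0.43 (limma, adjusted p = 0.918, 0.814 and 0.986). TP63 had a noDOX mean of 1.32 and a DOX mean of 0.702 FPKM, so its entry into the test was not independent of its difference. The monocyte marker CD14 overlapped between groups, at 8.01 and 6.01 against 1.94 and 15.9 FPKM. The part of these markers in the members' differences was not tested. The labels name no separate cultures, so a p-value here covers only how far these libraries scatter, and that scatter may be technical.

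The members covered a wide range of levels. AGR2 stood first in all 4 libraries, MUC13 and MUC1 followed, then SPDEF and MUC5B, with MUC16 close to 0 and SCGB1A1 listed at 0 throughout. The range of AGR2, 195 to 533 FPKM, did not meet that of MUC13, 4.50 to 7.67 FPKM, and the ratio of AGR2 to MUC13 within a library ran from 26.8 to 98.8. MUC13 was above MUC1 in 4 of 4 libraries although their ranges over all libraries overlapped. The ranges of MUC1 and SPDEF and of SPDEF and MUC5B overlapped too, and each of these pairs kept its order in 3 of 4 libraries. MUC5B and MUC16 did not overlap. AGR2 ranked 249th and 405th in noDOX libraries 1 and 2 and 181st and 252nd in DOX libraries 1 and 2 among 21542 symbols outside the small RNA classes.

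**Figure D1:**
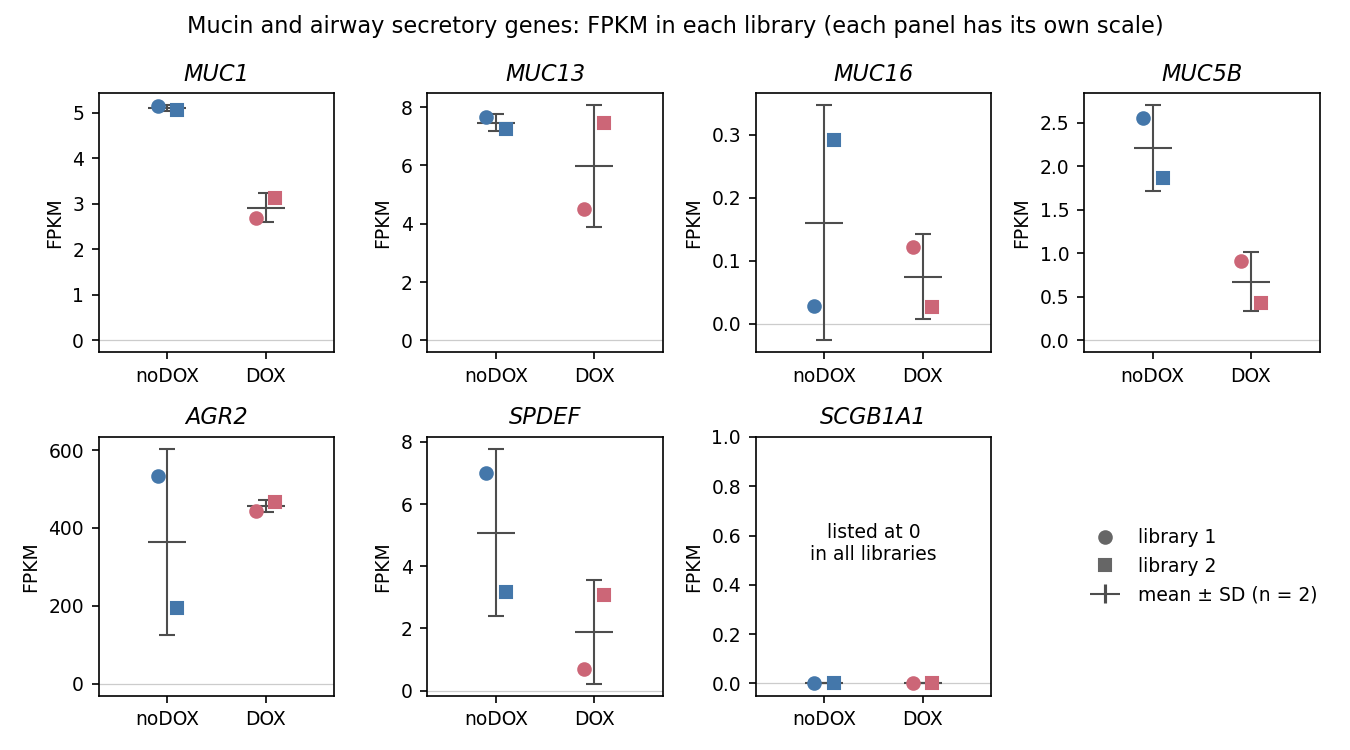
FPKM of the 7 members with a row (vertical axes, linear, each panel on its own scale) in the noDOX and DOX libraries; circles and squares are libraries 1 and 2 and bars give the mean ± SD (n = 2). MUC1, MUC5B and SPDEF have both DOX values below both noDOX values, AGR2 and MUC13 overlap, and SCGB1A1 is listed at 0 in all 4 libraries.

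Of the 7 members, 5 had a mean of at least 1 FPKM over the 4 libraries and were tested among 12504 genes, on log2(FPKM + 1). None of the 5 passed an adjusted p of 0.05 (limma, 0 of 5), where 0.0880% of all tested genes passed, 0.0640% with lower and 0.0240% with higher DOX values. At an unadjusted p under 0.05 were MUC1 and MUC5B, 2 of 5, against 793 genes or 6.34% of all tested. In MUC1, MUC5B and SPDEF the DOX values did not reach the lower of the noDOX values, which held for 17.3% of all tested genes, and 14.7% had both above. In 4 of 5 the mean log2 value was lower with doxycycline, as it was for 56.1% of all tested genes, and the median difference of the 5 was -0.64 against -0.04 over all tested genes. MUC5B reached the filter with a noDOX mean above and a DOX mean below 1 FPKM, so its entry into the test was not independent of its difference. Among the 5, 4 members (all but MUC5B) were higher in noDOX library 1 than 2 and in DOX library 2 than 1, an order also held by 7 of 10 housekeeping genes and 41.5% of all tested genes, while 38.2% had the reverse order in both groups. A block for this order was added after seeing the data, and with it none of the 5 passed. The SE went from 0.55 to 0.14 for SPDEF, from 0.58 to 0.40 for AGR2 and from 0.18 to 0.11 for MUC1. It went from 0.26 to 0.18 for MUC13 and from 0.27 to 0.24 for MUC5B. The block was chosen from the same libraries, so these SEs are a description. The cause of the library order was not tested. An exact permutation test of 2 against 2 libraries cannot go below p = 0.333.

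MUC1, a membrane mucin whose cytoplasmic tail takes part in signalling, had the closest noDOX replicates of the 5 tested members, while in DOX libraries those of AGR2 were closer. It was at 5.14 and 5.05 FPKM in noDOX libraries 1 and 2 and at 2.69 and 3.14 FPKM in DOX libraries 1 and 2. The noDOX values were nearly equal, and both DOX values were lower, with no overlap. The noDOX mean was 1.75 times the DOX mean, 5.10 ± 0.0657 against 2.91 ± 0.317 FPKM (SD, n = 2 each). In log2(FPKM + 1) units the DOX libraries differed by -0.64 (SE 0.18, 95% interval -1.12 to -0.17; limma, adjusted p = 0.630). That difference was wider than either gap between replicates, 0.022 in noDOX and 0.17 in DOX on the same scale. A difference wider than both gaps was found in 22.6% of all tested genes and, on the lower side, in 12.1%. These gaps are those of the FPKM as deposited. With libraries scaled to the same sum outside small RNA genes, the difference was -0.54 with a larger SE of 0.38. In bulk RNA, fewer cells with a transcript and less of it per cell cannot be told apart. MUC1 shares exon bases with the gene model AL713999.1 on the same strand, and its value is uncertain to that extent.

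MUC5B, the gel-forming mucin of small airways and submucosal glands, measured 2.56 and 1.86 FPKM without doxycycline, and 0.917 and 0.434 FPKM with it. All 4 values were low, and the groups did not overlap. The noDOX mean was 3.27 times the DOX mean. The log2(FPKM + 1) difference was -0.94 (SE 0.27, 95% interval -1.67 to -0.22; limma, adjusted p = 0.640), wider than the replicate gaps of 0.31 and 0.42. With a pseudocount of 0.1 the difference was -1.63 (limma, adjusted p = 0.680), since values near 1 FPKM are compressed by adding 1. Over the alternatives adjusted p ran from 0.201 to 1 (limma), lowest with a pairing of libraries added after seeing the data. MUC5B shares exon bases with MUC5B-AS1 on the other strand, and whether the authors' counting used strand is not stated in these sources.

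SPDEF, the goblet cell transcription factor, was at 6.99 and 3.18 FPKM in noDOX libraries 1 and 2 and at 0.709 and 3.08 FPKM in DOX libraries 1 and 2. The groups did not overlap, but noDOX library 2 and DOX library 2 nearly met. Replicates differed by 0.94 in noDOX and by 1.26 in DOX on the log2(FPKM + 1) scale, and 97.6% of tested genes had a smaller gap between the DOX libraries. The difference was -1.13 (SE 0.55, 95% interval -2.59 to 0.33; limma, adjusted p = 0.927), narrower than the gap between the DOX libraries. It ran from -0.50 without DOX library 1 to -1.76 without DOX library 2, and was -0.66 without noDOX library 1 and -1.60 without noDOX library 2.

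MUC13, a membrane mucin best known from the gut, measured 7.67 and 7.26 FPKM without doxycycline, and 4.50 and 7.45 FPKM in DOX libraries 1 and 2. DOX library 1 was the low one, and DOX library 2 lay between the noDOX values. The difference was -0.31 on the log2(FPKM + 1) scale (SE 0.26, 95% interval -1.01 to 0.39; limma, adjusted p = 0.999). Without DOX library 1 it was -0.0018, and without DOX library 2 it was -0.62.

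AGR2, a protein disulfide isomerase of the endoplasmic reticulum that binds mucin chains, was at 533 and 195 FPKM in noDOX libraries 1 and 2 and at 445 and 467 FPKM in DOX libraries 1 and 2. The DOX values were nearly equal and fell between the noDOX values, of which library 2 was the low one. The gap between the noDOX libraries, 2.74 times, was larger on the log2(FPKM + 1) scale than that of 97.4% of tested genes. The noDOX mean was 364 ± 239 FPKM and the DOX mean 456 ± 15.7 FPKM (SD, n = 2 each), with a log2(FPKM + 1) difference of 0.50 (SE 0.58, 95% interval -1.04 to 2.04; limma, adjusted p = 0.999). The sign rested on noDOX library 2, since without it the difference was -0.23, and without noDOX library 1 it was 1.22.

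MUC16, the very large membrane mucin whose shed form is the CA125 antigen, was under the filter, with 0.0285 and 0.292 FPKM in noDOX libraries 1 and 2 and 0.123 and 0.0275 FPKM in DOX libraries 1 and 2. Its highest value was in noDOX library 2, and the groups overlapped. With every gene above 0 tested, its log2(FPKM + 1) difference was -0.10 (SE 0.13; limma, adjusted p = 0.974). SCGB1A1 was listed at 0 in every library. An exact 0 in an FPKM table can also be a failed estimate, and no fold can be given.

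**Figure D2:**
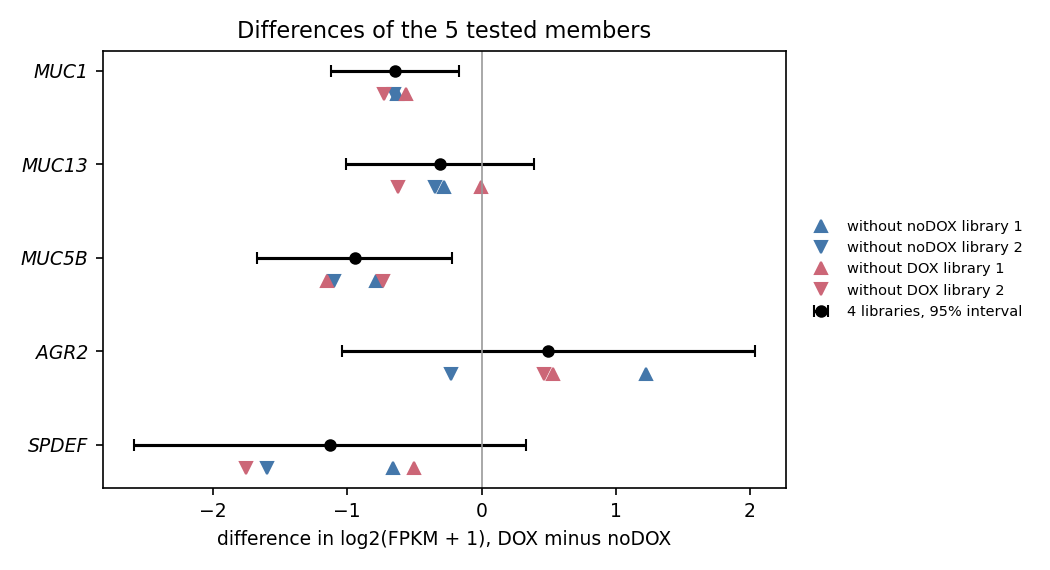
Differences in log2(FPKM + 1), DOX minus noDOX (horizontal axis), for the 5 tested members; black points with bars are the limma estimates from 4 libraries with 95% intervals, and triangles the estimates with 1 library left out. MUC1, MUC5B and SPDEF stay below 0 with every library left out, MUC13 stays below 0 but reaches -0.0018, and AGR2 crosses 0 without noDOX library 2.

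**Figure D3:**
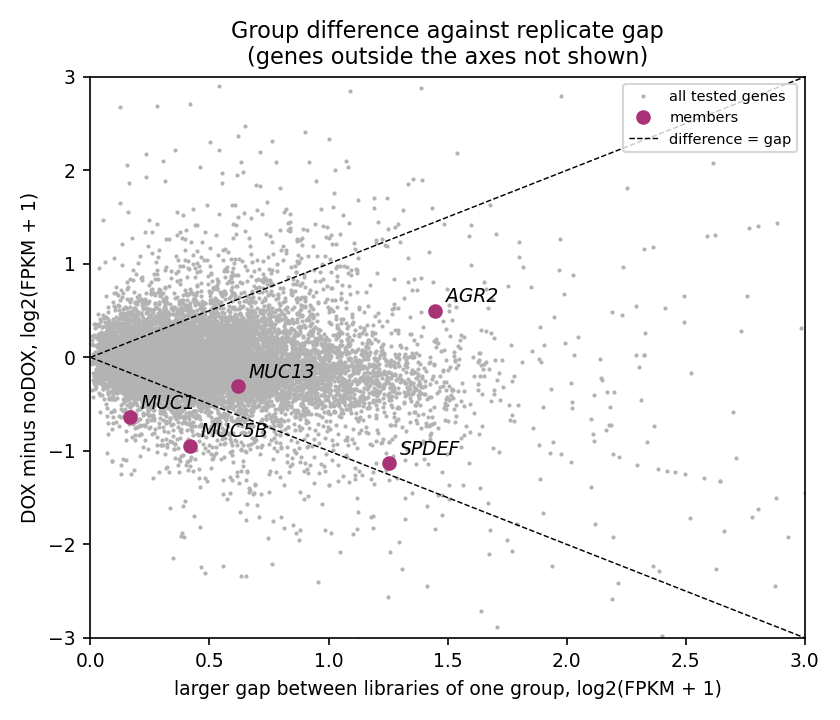
DOX minus noDOX difference (vertical axis) against the larger of the gaps between libraries of 1 group (horizontal axis), both in log2(FPKM + 1), for all tested genes (grey) and the 5 tested members; dashed lines mark a difference equal to the gap. MUC1 and MUC5B lie outside the dashed lines, and MUC13, AGR2 and SPDEF inside them.

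The sequences before the transcription start are shown for AGR2, MUC13, MUC1 and SPDEF because doxycycline raises a GATA factor in these cells and because the 4 genes differed in how their libraries fell. RefSeq promoters (GRCh38.p14, whereas the table was made on hg19) were matched by symbol for 5 of the 8 genes; MUC5AC, MUC5B and SCGB1A1 had no entry. The 250 bases before the start were searched for the GATA motif, spelled AGATAA or TGATAA or AGATAG or TGATAG on either strand, and for TATAAA on the strand of the gene. Of 35116 promoters 22.3% held such a GATA motif and 6.80% TATAAA. Capitals mark the matches, which shared no bases. The AGR2 sequence is chr7:16805000-16805249, that of MUC13 chr3:124934752-124935001, that of MUC1 chr1:155192916-155193165 and that of SPDEF chr6:34556330-34556579, all on the minus strand and printed 5′ to 3′ towards the start.
AGR2: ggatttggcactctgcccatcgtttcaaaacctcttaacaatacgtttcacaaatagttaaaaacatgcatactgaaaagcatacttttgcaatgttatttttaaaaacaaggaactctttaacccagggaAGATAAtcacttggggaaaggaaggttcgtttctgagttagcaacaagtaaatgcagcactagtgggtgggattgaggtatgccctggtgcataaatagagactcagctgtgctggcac
MUC13: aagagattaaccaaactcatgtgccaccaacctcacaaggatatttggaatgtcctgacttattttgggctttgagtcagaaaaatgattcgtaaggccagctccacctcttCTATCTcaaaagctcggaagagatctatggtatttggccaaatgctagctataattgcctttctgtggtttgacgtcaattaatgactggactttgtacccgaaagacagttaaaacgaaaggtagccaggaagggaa
MUC1: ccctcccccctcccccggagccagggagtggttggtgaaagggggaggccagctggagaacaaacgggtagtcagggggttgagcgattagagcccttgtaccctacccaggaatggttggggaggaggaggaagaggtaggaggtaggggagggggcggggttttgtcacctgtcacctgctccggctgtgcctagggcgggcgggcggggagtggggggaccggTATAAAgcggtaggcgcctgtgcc
SPDEF: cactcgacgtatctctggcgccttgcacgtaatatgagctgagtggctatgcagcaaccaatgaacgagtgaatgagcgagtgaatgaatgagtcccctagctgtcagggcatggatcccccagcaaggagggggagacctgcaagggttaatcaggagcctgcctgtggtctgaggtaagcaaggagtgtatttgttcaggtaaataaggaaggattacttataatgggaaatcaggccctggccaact

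AGR2 held AGATAA with its first base 119 bases before the start, and MUC13 held CTATCT, which is AGATAG on the other strand, 138 bases before the start. AGR2 and MUC13 were the 2 tested members whose libraries overlapped. MUC16, untested and without the motif, overlapped too. MUC5B had no promoter entry, and any link between these letters and the levels was not tested. The window of SPDEF, and both windows listed for each of MUC1 and MUC16, held no such letters. MUC1 had TATAAA beginning 24 bases before the start in the printed window and 30 bases before that of its second listed window, with 66.0% G and C in each, against 40.4% in AGR2, 41.6% in MUC13, 50.8% in SPDEF and a median of 58.0% over all promoters. A match is a description of letters, and binding was not measured in these libraries.

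The other mucin genes were scarce. Of 8 further membrane mucins with a row, 7 were under a mean of 1 FPKM, with no value above 0.249 FPKM in any library, and the exception was CD164, a sialomucin of endosomes and the cell surface. CD164 was at 47.1 and 48.6 FPKM without and 61.6 and 50.7 FPKM with doxycycline, with a log2(FPKM + 1) difference of 0.22 (SE 0.24; limma, adjusted p = 0.999). All 5 further secreted mucins with a row were under the filter, with no value above 0.968 FPKM. Of the gel-forming mucins with a row, which were MUC2, MUC6 and MUC5B, only MUC5B was tested.

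Enzymes that build the O-linked sugars of mucins were mostly present, with 17 of 22 tested. None passed (limma, 0 of 17; 2 at an unadjusted p under 0.05, against 6.34% of all tested genes). Mean log2 values were higher in 6 and lower in 11, and the median difference was -0.20. ST6GALNAC1, which adds sialic acid to the first sugar and so makes the sialyl-Tn antigen, was at 0.847 and 0.421 FPKM in noDOX and 2.23 and 2.16 FPKM in DOX libraries, a log2(FPKM + 1) difference of 0.98 (SE 0.25; limma, adjusted p = 0.567). GALNT7, a GalNAc transferase that extends partly glycosylated chains, was at 15.3 and 12.8 against 27.3 and 19.8 FPKM. The DOX libraries of both were above the noDOX libraries, which held for 14.7% of all tested genes, while 17.3% had both below. GALNT6, another GalNAc transferase, was at 1.18 and 3.35 against 0.822 and 0.742 FPKM, and B3GNT3, which extends core 1 chains, at 4.99 and 4.83 against 1.82 and 3.86 FPKM, both with the DOX libraries below. ST6GALNAC1 and GALNT6 crossed 1 FPKM between groups.

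Of 18 goblet cell genes 6 were tested, and none passed (limma, 0 of 6; 2 at an unadjusted p under 0.05, against 6.34% of all tested genes). CREB3L1, a transcription factor of the secretory pathway, was at 1.68 and 1.99 FPKM in noDOX and 3.65 and 3.91 FPKM in DOX libraries, a log2(FPKM + 1) difference of 0.76 (SE 0.19; limma, adjusted p = 0.567). BCAS1 had the opposite order, at 8.96 and 9.62 against 3.82 and 6.18 FPKM. Both DOX values were above both noDOX values in 14.7% of all tested genes, and below them in 17.3%. CREB3L4, a relative of CREB3L1, and FCGBP, a protein of mucus, overlapped between groups, with log2 differences of -0.27 and -0.31. CLCA1 and CLCA4, of the same set, were listed at 0 in every library, and the 12 untested genes had no value above 0.738 FPKM.

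**Figure D4:**
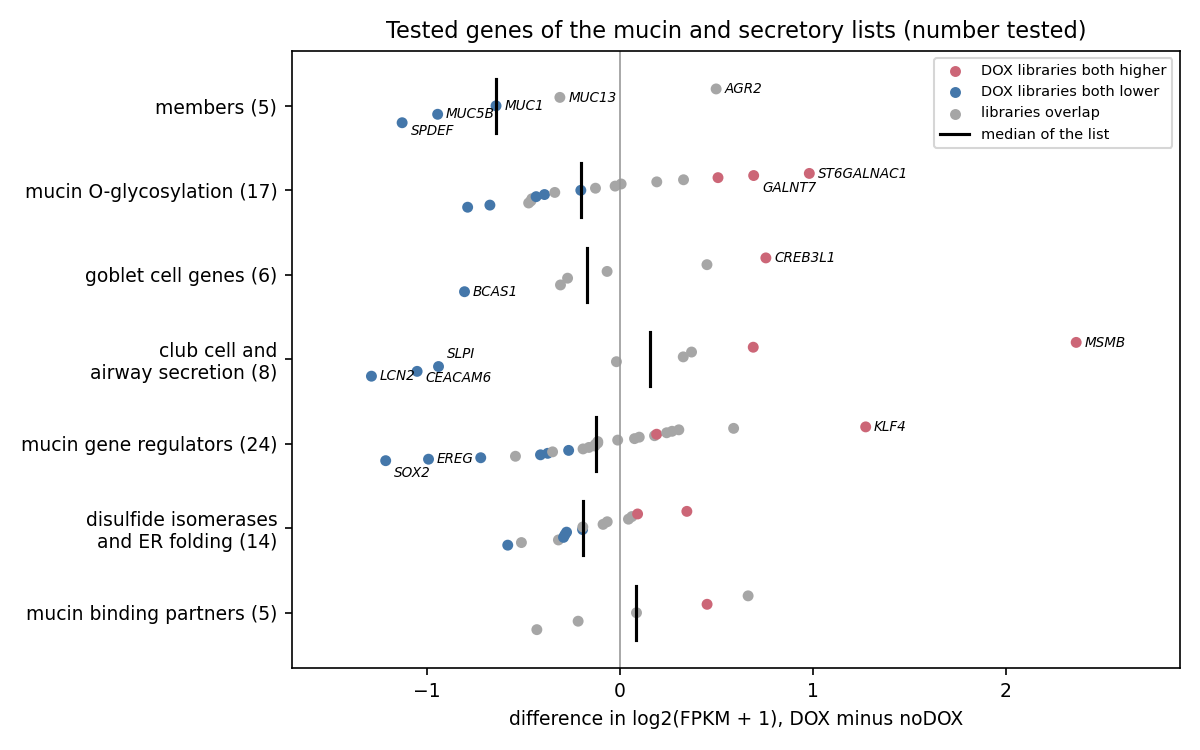
Differences in log2(FPKM + 1), DOX minus noDOX (horizontal axis), for the tested genes of the members' list and of 6 further lists (rows, with the number tested); red and blue points have both DOX libraries above or below both noDOX libraries, grey points overlap, and black bars are list medians. MSMB lies farthest to the right at 2.36, and LCN2, SOX2 and SPDEF lie farthest to the left.

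Genes of club cells and airway secretion went in both directions, with 8 of 16 tested, 4 at higher and 4 at lower mean log2 values, and a median of 0.15. None passed (limma, 0 of 8; 4 at an unadjusted p under 0.05, against 6.34% of all tested genes). LCN2, an antibacterial lipocalin, was at 28.2 and 30.1 FPKM in noDOX and 13.6 and 9.43 FPKM in DOX libraries, a log2(FPKM + 1) difference of -1.29 (SE 0.25; limma, adjusted p = 0.455). The adhesion molecule CEACAM6 was at 20.9 and 27.5 against 11.4 and 10.7 FPKM. SLPI, the leukocyte protease inhibitor of airway fluid, was at 26.8 and 21.5 against 10.8 and 13.4 FPKM. In all 3, named for their small p, both DOX values were below both noDOX values, as in 17.3% of all tested genes. MSMB, a secreted microseminoprotein, stood the other way, at 0.728 and 0.124 FPKM in noDOX and 6.33 and 6.02 FPKM in DOX libraries, a log2(FPKM + 1) difference of 2.36 (SE 0.28; limma, adjusted p = 0.218), and its DOX libraries brought it over the filter. The club cell secretoglobins SCGB3A1 and SCGB3A2 were listed at 0 in all 4 libraries, as SCGB1A1 was.

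Regulators of mucin genes were nearly all measured, with 24 of 26 tested. None passed (limma, 0 of 24; 4 at an unadjusted p under 0.05, against 6.34% of all tested genes). Mean log2 values were higher in 9 and lower in 15, and the median was -0.12. KLF4, a zinc finger factor of goblet and other barrier cells, was at 3.85 and 3.90 FPKM in noDOX and 12.5 and 9.31 FPKM in DOX libraries, a log2(FPKM + 1) difference of 1.27 (SE 0.21; limma, adjusted p = 0.382). EREG, a ligand of the EGF receptor family whose signals induce mucins, was at 7.63 and 8.55 against 2.91 and 4.32 FPKM, and the receptor ERBB3 at 8.20 and 8.64 against 4.29 and 5.17 FPKM. SOX2, a factor of airway progenitors, was at 22.1 and 34.4 against 14.3 and 8.90 FPKM. In EREG, ERBB3 and SOX2 the DOX libraries lay below the noDOX libraries, and in KLF4 above them. Of all tested genes 17.3% had both DOX values below and 14.7% both above.

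AGR2 belongs to a family of disulfide isomerases, and 14 of 16 such enzymes and their folding partners were tested. None passed (limma, 0 of 14; 0 at an unadjusted p under 0.05), and the median was -0.19, with 4 higher and 10 lower mean log2 values. TXNDC5, an isomerase, had a log2(FPKM + 1) difference of -0.58 (SE 0.27), ERO1LB, which oxidises isomerases, -0.51 (SE 0.37), ERP44, which retains client proteins, 0.35 (SE 0.19) and the cochaperone DNAJB9 -0.28 (SE 0.17). TXNDC5 shares exon bases with a readthrough model on the same strand and DNAJB9 with THAP5 on the other.

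Of 6 partners that bind mucins or AGR2, 5 were tested and none passed (limma, 0 of 5; 0 at an unadjusted p under 0.05), with a median of 0.09. CTNNB1, the β-catenin that binds the tail of MUC1, was at 42.2 and 47.6 against 61.6 and 61.8 FPKM (log2 difference 0.45, SE 0.23). Its DOX libraries were both above, as in 14.7% of all tested genes. DAG1, dystroglycan, had a difference of 0.66 (SE 0.37), LYPD3 of -0.43 (SE 0.40) and the plakoglobin JUP of -0.22 (SE 0.29). LYPD3 had a noDOX mean of 1.51 and a DOX mean of 0.789 FPKM, so its entry into the test was not independent of its difference. MSLN, the ligand of MUC16, was under the filter. Of the genes named from these lists, CD164, GALNT6, GALNT7, CREB3L4, CEACAM6 and ERBB3 share exon bases with another gene model, CEACAM6 also has close copies that can share reads, and ERO1LB was not matched to the annotation, so their values are uncertain to that extent.

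The genes whose profiles over the 4 libraries were most like those of the members were found by Euclidean distance between centred log2(FPKM + 1) values among 12112 tested genes, those left once small RNA genes (recognised by symbol) were set aside. With 4 libraries many genes lie close by, and the distance is a description. For MUC1 they were C18orf56, GULP1 and RTDR1, at distances of 0.0371 to 0.0710. For MUC5B they were TM4SF4, GOLT1A and CPS1, at 0.183 to 0.247, and for MUC13 TIMD4, PPIF and SFR1, at 0.0225 to 0.0574. The nearest to SPDEF were GADD45B, LACTB2 and MND1, at 0.135 to 0.233. GADD45B, a stress-induced gene, was at 112, 50.9, 22.0 and 51.9 FPKM in noDOX libraries 1 and 2 and DOX libraries 1 and 2, with its second noDOX and second DOX value nearly equal like those of SPDEF. The nearest to AGR2 were MGST2, APOC1 and HIST1H4A, at 0.248 to 0.273, and MGST2, a microsomal glutathione transferase, was at 109, 43.2, 95.3 and 120 FPKM in the same order, low in noDOX library 2 alone.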

How the data were processed

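Polyadenylated RNA of 2 noDOX and 2 DOX libraries was sequenced. Per the submitters' processing notes, TopHat2 2.0.10, Bowtie, Cufflinks 2.2.1 and Cuffdiff were used on hg19. The authors deposited FPKM, one column for each library. The annotation, strand setting, handling of reads from mucin repeats or gene copies, and how libraries were scaled to each other were not stated in these sources, and no count or depth was used, so no counting interval can be given.

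Values were tested as log2(FPKM + 1), with a pseudocount of 1 that understates changes of low genes. The 12504 genes averaging 1 FPKM or more entered a limma 3.58.1 fit (R 4.3.3) of DOX against noDOX, moderated along a mean-variance trend, with two-sided p adjusted over all of them by Benjamini-Hochberg and a threshold of 0.05, leaving 2 residual degrees of freedom. The fit was run on simulated data with independent noise of equal size for every gene. The planted changes were larger than the members' differences, so the run does not show how well differences of that size are found. The members and lists were chosen with earlier results of these data known. All members were named, then up to 4 tested genes of each of 8 further lists by smallest p with any past the threshold, and the 3 nearest profiles of each tested member. Exon overlaps came from GENCODE 29, matched by symbol, on a later build. Alternatives were the pseudocount, filter, scaling, moderation, small RNA genes left out, a replicate block and each library left out. A crossed block was added after seeing the data.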

Additional observations from a re-analysis of the deposited data

How the results depend on the processing

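Over 15 alternatives none of the tested members passed the threshold (limma, 0 in each), and MUC1, MUC5B, MUC13 and SPDEF kept lower DOX values in every alternative in which they were tested. AGR2 turned from 0.50 to -0.23 without noDOX library 2, and ran from -0.23 to 1.22 with 1 library left out. The median difference of the tested members, -0.64, ran from -0.73 to -0.50 with 1 library left out. Lowest adjusted p over the alternatives was 0.163 for MUC1, 0.201 for MUC5B, 0.376 for MUC13, 0.497 for AGR2 and 0.139 for SPDEF (limma). All of these came from the crossed block, which was added after seeing the data. Scaling to the same sum outside small RNA genes moved the median difference of all genes from -0.04 to 0.07. It moved the difference of MUC1 from -0.64 to -0.54 and its SE from 0.18 to 0.38.

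Counts over all genes, 3 higher and 8 lower, of which 10 were small RNA genes, were less stable. They were 5 higher with a pseudocount of 0.1, 6 higher with robust moderation, 0 higher and 1 lower with no filter, 1 higher and 2 lower with equal sums, and 1 higher and 0 lower with small RNA genes left out (limma; 793 at an unadjusted p under 0.05 in the fit as reported). With 1 library left out they ran from 4 to 31 higher and 19 to 59 lower. With the replicate block they were 30 higher and 35 lower, and 0 members passed. The labels give no origin for the numbers, and replicate 1 minus 2 correlated at -0.758 between groups over 12112 genes, so the numbers do not pair the samples. With the pairing crossed, 5 were lower and 0 members passed. MUC5B was not tested with a mean of at least 3 FPKM. Unknown depth limits what can be said of MUC16 and SCGB1A1.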

Other observations

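Some secretory and epithelial genes, named after their values were seen, were high in 1 library of each group, in an order that was not particular to them. TFF1, a trefoil peptide of mucus, was at 56.2 and 12.1 FPKM in noDOX libraries 1 and 2 and at 16.3 and 80.2 FPKM in DOX libraries 1 and 2. The galectin LGALS3 was at 85.1, 45.5, 46.7 and 93.5 FPKM in the same order, and the keratin KRT19 at 53.5, 7.49, 12.0 and 87.0 FPKM. All 3 were high in noDOX library 1 and DOX library 2. So were housekeeping genes, with PPIA at 869, 378, 366 and 688 FPKM, GAPDH at 5907, 3741, 2912 and 5025 FPKM and RPLP0 at 2350, 1326, 1157 and 1739 FPKM. These libraries also had the higher FPKM sums, 1381820 and 1238480 against 989493 and 975728, and over 12112 genes the difference of replicate 1 minus 2 correlated at -0.758 between groups. The order held for 2 of 6 tested goblet cell genes and 4 of 6 epithelial markers, against 41.5% of all tested genes. Some scarce membrane mucins, with values near 0, had the opposite order. MUC4 was at 0.0706, 0.178, 0.122 and 0.0584 FPKM and MUC20 at 0.115, 0.249, 0.207 and 0.134 FPKM. Both were higher in noDOX library 2 and DOX library 1, as MUC16 was. MUC17, at 0.0056, 0.0016, 0 and 0.0026 FPKM, had the order of TFF1, and MUC12 had neither order. The opposite order held for 38.2% of all tested genes.

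Ciliated cell markers were low, with 3 of 7 at a mean of 1 FPKM or more. RSPH1, a radial spoke protein of cilia, was at 3.71 and 3.24 FPKM in noDOX and 1.59 and 2.23 FPKM in DOX libraries, a log2(FPKM + 1) difference of -0.63 (SE 0.22; limma, adjusted p = 0.747), and TEKT1 was listed at 0 in every library.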
